A study of Mus musculus with 10 samples.

Results

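Tight junction genes were followed through the cell classes of the old mouse inner ear: the claudins Cldn4, Cldn5, Cldn6, Cldn9, Cldn10, Cldn11 and Cldn14, the tricellular junction genes Marveld2 and Ildr1, and the scaffold gene Tjp1. The 10 genes were chosen by name, as claudins and tight junction genes known in deafness or in the barriers of the inner ear, and all 10 were among the 32285 genes of the deposited tables. The libraries were made by droplet single-cell RNA sequencing of cochleae and vestibular organs from wild-type CBA/J mice aged 22 months, with several mice in each library, and no young mice were analysed here. Replicate 2 of each organ repeated replicate 1: the 2 cochlear libraries shared 1313 cell barcodes and the 2 vestibular libraries 1633, while any other pair of libraries shared at most 41, and the counts of the shared cells differed by less than the sampling noise (a chi-square per gene of 0.127 and 0.122). Replicate 2 was therefore set aside, which left 4 libraries of each organ, replicates 1, 3, 4 and 5. All groups share strain, age and the absence of any treatment, so that every comparison below is between cell classes or between organs.

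Tight junctions close the space between neighbouring epithelial cells and so separate the potassium-rich endolymph above hair cells (HCs) from the fluid below them. Claudins form the strands between pairs of cells, and some claudins seal the strand while others leave pores for ions. Marveld2 (tricellulin) and Ildr1 (angulin-2) close the corners where cells meet in threes, and Tjp1 (ZO-1) anchors the strands to actin. Loss of Cldn14, Cldn9, Marveld2 or Ildr1 is known to cause deafness in mice, and Cldn11 is known for the barrier of the stria vascularis and for myelin.

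Cldn6 and Cldn9 are neighbours in the genome. In the GENCODE M21 annotation of GRCm38, Cldn6 occupies chr17:23679249-23682446 on the plus strand and Cldn9 chr17:23682584-23684026 on the minus strand, tail to tail, with 137 bases between them. Tjp1 lies at chr7:65296165-65527781 on the minus strand, Marveld2 at chr13:100595957-100616971 on the minus strand, Cldn14 at chr16:93919031-94008837 on the minus strand and Ildr1 at chr16:36693978-36726804 on the plus strand. Cldn10 lies at chr14:118787908-118875489, Cldn11 at chr3:31149920-31164324 and Cldn5 at chr16:18776847-18778262, all on the plus strand, and Cldn4 at chr5:134945119-134946934 on the minus strand. Each value is a count over the whole gene, from reads near the 3′ end of the transcript, so that alternative starts of Cldn10 were not told apart. Tjp1 overlaps Gm44792 and Gm44794, and Cldn14 overlaps Gm49618, on the same strand, and how reads in the shared stretches were counted was not examined.

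Promoters of RefSeq (GRCm38.p6, 250 bases before to 50 after the start) were matched by symbol for 9 of the 10 genes, with 13 entries in all. Shown as examples are 1 promoter of Marveld2, the distal start of Cldn14 and both starts of Cldn10, genes that differed between the organs in HCs or SCs. They were searched on both strands for letters known from binding sites, and matches are in capitals. The letters AACCGGTT, as in sites of grainyhead-like factors, were in 0.146% of all 32851 promoters of the table. The letters TATAAA of the TATA box were in 13.6%. The letters GGGCGG of a GC box were in 35.7%. The letters AACAAT, as in sites of SOX factors, were in 10.7%.
Marveld2, chr13:100616922-100617221, minus strand: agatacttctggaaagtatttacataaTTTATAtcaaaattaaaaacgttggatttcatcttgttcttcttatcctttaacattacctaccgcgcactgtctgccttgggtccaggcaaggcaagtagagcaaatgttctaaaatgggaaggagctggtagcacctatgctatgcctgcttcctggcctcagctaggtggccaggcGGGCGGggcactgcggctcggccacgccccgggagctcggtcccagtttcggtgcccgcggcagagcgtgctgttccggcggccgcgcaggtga
Cldn14, chr16:94008788-94009087, minus strand: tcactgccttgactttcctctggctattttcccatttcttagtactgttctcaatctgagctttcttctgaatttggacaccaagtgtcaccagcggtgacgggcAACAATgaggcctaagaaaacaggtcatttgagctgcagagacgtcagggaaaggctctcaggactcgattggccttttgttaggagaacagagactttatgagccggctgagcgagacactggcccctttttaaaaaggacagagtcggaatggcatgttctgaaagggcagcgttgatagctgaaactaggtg
Cldn10, upstream start, chr14:118787621-118787920, plus strand: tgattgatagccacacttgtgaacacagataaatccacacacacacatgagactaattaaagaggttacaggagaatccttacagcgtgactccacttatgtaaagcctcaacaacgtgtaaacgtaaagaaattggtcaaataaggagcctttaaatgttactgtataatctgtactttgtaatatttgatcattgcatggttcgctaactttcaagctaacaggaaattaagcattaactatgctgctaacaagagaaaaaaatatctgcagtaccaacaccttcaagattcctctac
Cldn10, downstream start, chr14:118854700-118854999, plus strand: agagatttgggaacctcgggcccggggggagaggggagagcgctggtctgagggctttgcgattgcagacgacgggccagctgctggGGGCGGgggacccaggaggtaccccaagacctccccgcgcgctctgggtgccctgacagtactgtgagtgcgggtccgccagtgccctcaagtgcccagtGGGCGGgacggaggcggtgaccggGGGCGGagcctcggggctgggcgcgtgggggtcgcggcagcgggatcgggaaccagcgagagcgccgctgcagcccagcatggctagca
The upstream Cldn10 promoter was 36% GC with none of the letters searched, and the downstream promoter was 72% GC with 3 matches to GGGCGG. The Marveld2 promoter held 1 match to GGGCGG and 1 to TATAAA, and the Cldn14 promoter 1 match to AACAAT. Of the entries not shown, the second of Marveld2 held the same matches, the other 2 of Cldn14 held none, and those of Tjp1 and Ildr1, which also differed between organs, held 2 and 3 matches to GGGCGG. A match is a description of the letters and not a measured site.

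The libraries held between 2738036 and 26974948 unique molecular identifiers (UMIs, each counting a captured transcript once) in the cochlea and between 4150642 and 24104850 in the vestibule, and replicate 3 was the deepest in both organs. After filtering, 7272 cochlear and 10424 vestibular cells remained in 29 and 31 clusters, named from marker genes, and the genes described here were kept out of the clustering. Levels are given as CPM, the share of a gene in all UMIs of a class in a library scaled to parts in 1e6, as mean ± SD over libraries. Differences are log2 fold changes with standard errors from edgeR's quasi-likelihood test on the summed counts, with Benjamini-Hochberg adjustment over all genes tested. Separate animals behind each library are not tied to a cell, so that p-values measure the spread between libraries. Cell numbers were small for cochlear HCs, with 14 to 80 cells in a library, against 194 to 790 vestibular HCs. The mix of cochlear HC types also differed between libraries: 24 of 26, 28 of 80, 8 of 14 and 13 of 32 HCs were outer HCs in replicates 1, 3, 4 and 5. Another 70 cochlear cells of HC subclusters, with more UMIs than the cochlear HCs kept, were set aside for markers of other cells.

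**Figure D1:**
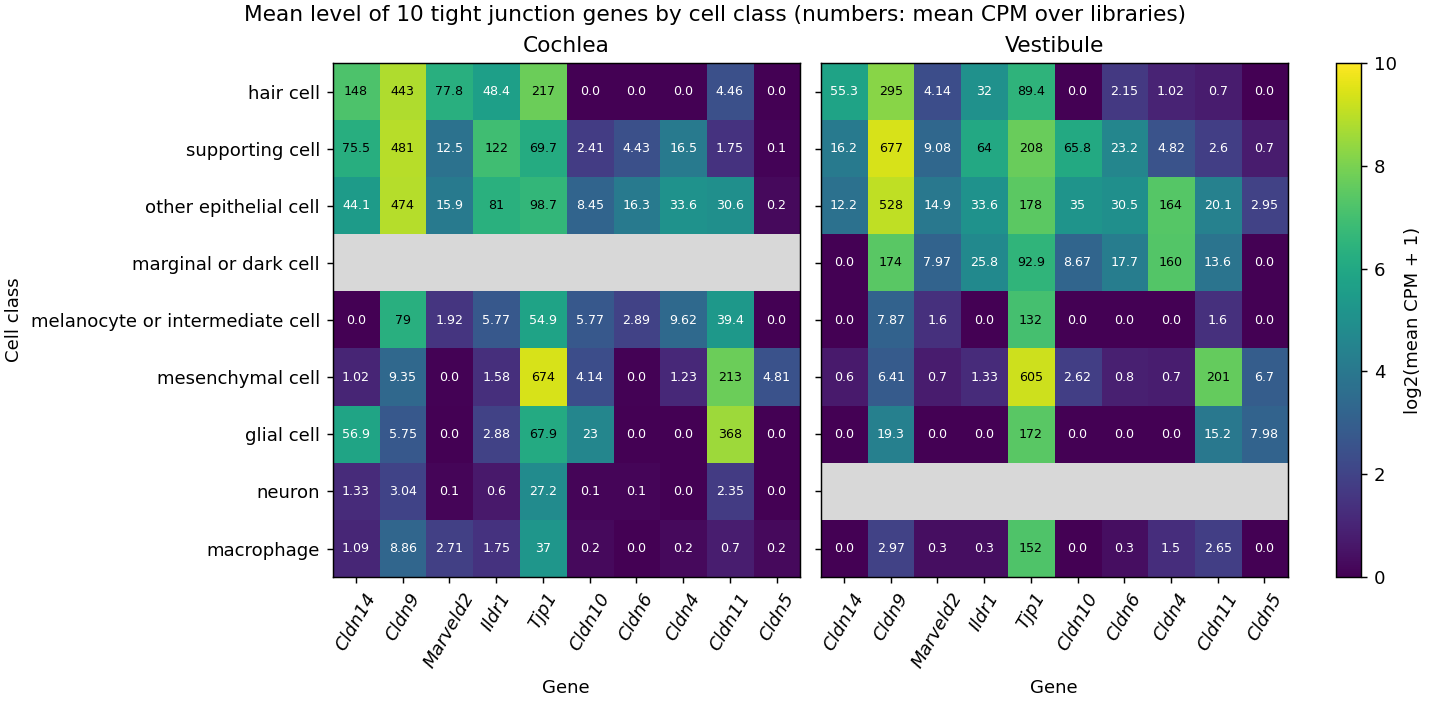
Mean CPM of the 10 genes (columns) in 9 cell classes (rows) of the cochlea and the vestibule, coloured by log2(mean CPM + 1) and averaged over the libraries with at least 5 cells of a class, with classes in fewer than 2 libraries in grey. Cldn14, Cldn9 and Ildr1 were highest in epithelial classes in both organs, and Tjp1 was highest in mesenchymal cells (674 and 605 CPM). Cldn4 averaged 164 CPM in other epithelial cells of the vestibule and 33.6 CPM in those of the cochlea. That class held different clusters in the organs and was not tested between them.

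Taking HCs first, Tjp1, Marveld2, Cldn14 and Cldn9 were higher in the cochlea than in the vestibule, and none of the 5 genes tested was called lower. Cldn4 and Cldn6, at 0 CPM in cochlear HCs and at 1.02 and 2.15 CPM in vestibular HCs, did not pass the filter on low counts. Without the filter they were not called (edgeR adjusted p = 0.608 and 0.369). Of the 5 genes that passed the filter on low counts, 4 were called, against a background of 30.9% of all genes tested, 12.8% higher and 18.1% lower (libraries did not overlap for 30.6%). Marveld2 passed the filter through the cochlear libraries alone, which largely set the direction of its call, so that the count is a description.

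Tjp1, the scaffold, stood at 241, 173, 229 and 227 CPM in cochlear HCs of replicates 1, 3, 4 and 5 and at 70.1, 82.8, 98.0 and 107 CPM in vestibular HCs. Every cochlear library was above every vestibular library. The means were 217 ± 30.5 and 89.4 ± 16.2 CPM (SD, n = 4), a difference of 1.24 ± 0.21 on the log2 scale (SE, edgeR adjusted p = 4.67e-05). Tjp1 was also found outside the epithelium, and its level there differed between the organs. Macrophages had 37.0 ± 10.6 CPM in the cochlea and 152 ± 144 CPM in the vestibule, where the libraries ran from 54.5 to 363 CPM. The vestibular HC mean was thus below that of vestibular macrophages, which were not tested between organs.

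Marveld2, which is needed at tricellular corners, was at 169, 55.4, 47.6 and 39.1 CPM in cochlear HCs, and at 3.75, 4.97, 6.36 and 1.47 CPM in vestibular HCs. The organs did not overlap, although replicate 1 of the cochlea, with 26 HCs, lay far above the other cochlear libraries. The difference was 3.90 ± 0.44 (SE, edgeR adjusted p = 2.65e-07). Marveld2 UMIs were found in 22.4% of cochlear HCs (95% exact binomial interval 16.0 to 29.8%) and in 1.88% of vestibular HCs (1.30 to 2.64%), and in 7.24% and 0.514% after each cell was thinned to 1000 UMIs. Macrophages, which should lack the gene, had a Marveld2 UMI in 0.676% of cochlear cells and 0.275% of vestibular cells.

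Cldn14, a claudin that blocks cation passage, was at 157, 131, 181 and 125 CPM in cochlear HCs and at 67.6, 56.6, 43.3 and 53.6 CPM in vestibular HCs. The organs did not overlap, and the difference was 1.43 ± 0.22 (SE, edgeR adjusted p = 1.68e-05). Cldn9 was at 314, 489, 609 and 360 CPM in cochlear HCs and at 355, 317, 255 and 254 CPM in vestibular HCs, with overlapping ranges. Its difference of 0.64 ± 0.22 (SE, edgeR adjusted p = 0.0328) was the smallest of those called, and the call was lost when either of cochlear replicates 3 and 4 or vestibular replicates 3, 4 and 5 was left out (adjusted p from 0.0662 to 0.155), without the filter (adjusted p = 0.121) and at a mitochondrial limit of 10% (adjusted p = 0.295). Ildr1 had means of 48.4 ± 18.8 and 32.0 ± 7.76 CPM and did not pass the test (0.42 ± 0.34, edgeR adjusted p = 0.401). With the HC subclusters set aside for markers of other cells put back, Ildr1 was called (0.68, adjusted p = 0.0492) and Cldn9 was not (0.43, adjusted p = 0.135).

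**Figure D2:**
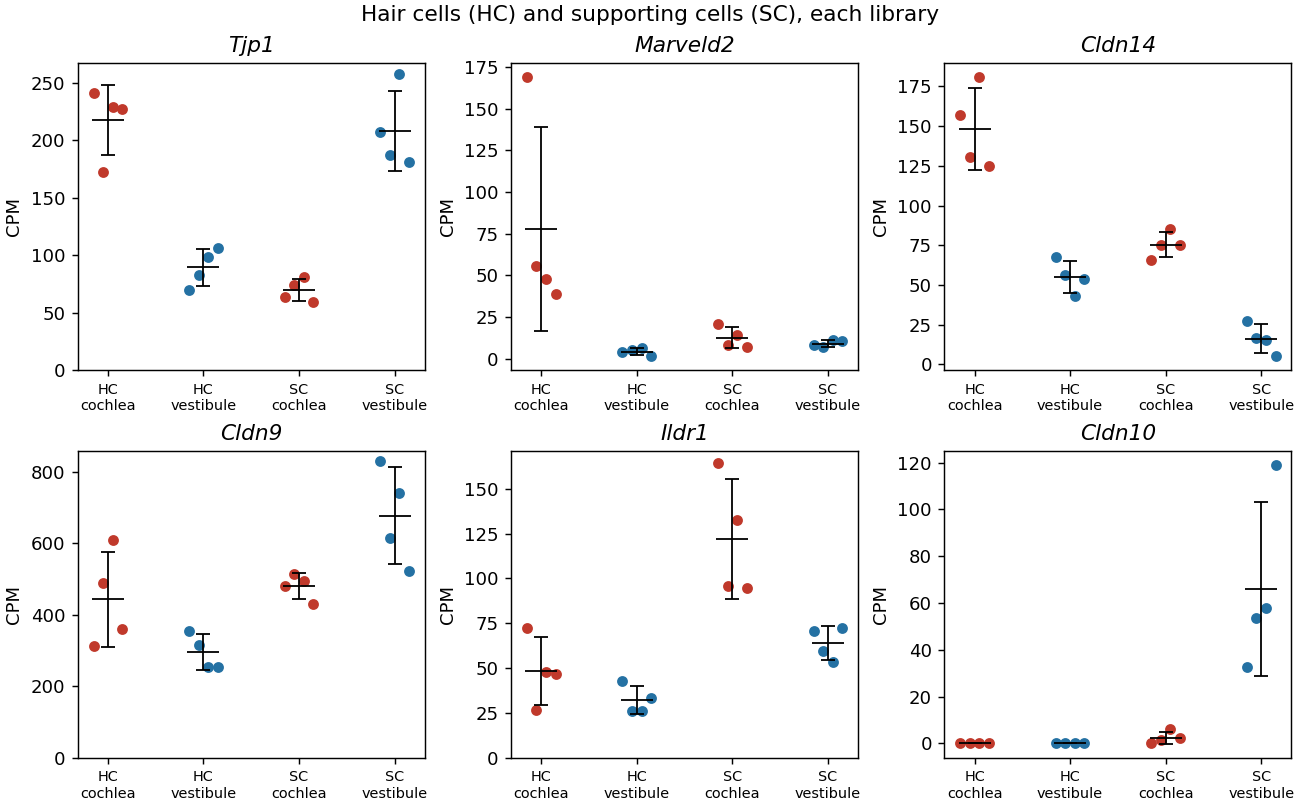
CPM of Tjp1, Marveld2, Cldn14, Cldn9, Ildr1 and Cldn10 in hair cells (HC) and supporting cells (SC), with a point for each of 4 libraries, the mean as a horizontal line and the SD as a bar. Tjp1 was higher in cochlear than vestibular HCs (217 against 89.4 CPM) and lower in cochlear than vestibular SCs (69.7 against 208 CPM), and Cldn10 was at 0 in every library of the HCs kept.

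Supporting cells (SCs), which surround each HC and complete its junctions, showed another order. Cldn14 and Ildr1 were higher in the cochlea, Tjp1 and Cldn10 were lower, and Cldn9 did not pass the test. Of the 5 genes tested 4 were called, against 29.6% of all genes tested, 14.1% higher and 15.5% lower (libraries did not overlap for 27.4%). Cldn10 passed the filter on low counts through the vestibular libraries alone, which largely set the direction of its call. The SC clusters were not the same in the organs: those of the cochlea were led by Dgkb, Pcdh17 or Rbp7, and those of the vestibule by Slc6a14 or Hhla1.

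Tjp1 was at 64.0, 74.1, 81.5 and 59.4 CPM in cochlear SCs and at 207, 187, 257 and 181 CPM in vestibular SCs. All vestibular libraries were higher, the reverse of the order in HCs, and the difference was -1.43 ± 0.20 (SE, edgeR adjusted p = 1.48e-05).

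Cldn10, which forms ion pores, was at 0, 1.32, 6.04 and 2.28 CPM in cochlear SCs and at 32.7, 53.8, 57.7 and 119 CPM in vestibular SCs. The difference of -4.50 ± 0.49 (SE, edgeR adjusted p = 6.47e-07) was the largest among the genes in SCs. A Cldn10 UMI was found in 15.3% of vestibular SCs (exact interval 12.4 to 18.6%) and in 1.17% of cochlear SCs (0.606 to 2.03%), against 0% and 0.225% of vestibular and cochlear macrophages. At 1000 UMIs a cell the SC shares were 6.49% and 0%.

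Cldn14 was at 65.7, 75.4, 85.5 and 75.4 CPM in cochlear SCs and at 27.2, 16.8, 15.5 and 5.18 CPM in vestibular SCs, a difference of 2.26 ± 0.28 without overlap (SE, edgeR adjusted p = 2.84e-06). Ildr1 was at 164, 95.9, 133 and 94.8 CPM in cochlear SCs and at 70.8, 59.4, 53.2 and 72.5 CPM in vestibular SCs, a difference of 1.06 ± 0.22 without overlap (SE, edgeR adjusted p = 0.000897). Cldn9 had means of 481 ± 35.7 and 677 ± 136 CPM, and the libraries did not overlap, but the difference of -0.35 ± 0.20 did not pass (edgeR adjusted p = 0.210). Cldn4 and Cldn6 did not pass the filter on low counts: Cldn4 had means of 16.5 ± 8.32 CPM in the cochlea and 4.82 ± 3.55 CPM in the vestibule, and Cldn6 of 4.43 ± 1.92 and 23.2 ± 13.2 CPM. Marveld2 did not pass it either, at 12.5 ± 6.34 and 9.08 ± 2.01 CPM. Without the filter Cldn4 (1.66, adjusted p = 0.00782) and Cldn6 (-2.44, adjusted p = 4.64e-07) were called and Marveld2 was not (adjusted p = 0.470), and Cldn6 passed the filter and was called when cochlear replicate 1 or vestibular replicate 5 was left out (adjusted p = 9.28e-05 and 0.000161).

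Within the cochlea, HCs held more Cldn14, Marveld2 and Tjp1 than SCs and less Ildr1, whereas Cldn9 did not pass the test. Of 5 genes tested 4 were called, against 43.9% of all genes tested, 20.4% higher and 23.5% lower (libraries did not overlap for 40.2%). Marveld2 passed the filter on low counts through HCs alone, which largely set the direction of its call. The differences, HC minus SC, were 0.78 ± 0.23 for Cldn14 (edgeR adjusted p = 0.0116), 2.43 ± 0.43 for Marveld2 (edgeR adjusted p = 0.000159), 1.43 ± 0.23 for Tjp1 (edgeR adjusted p = 6.52e-05) and -1.68 ± 0.33 for Ildr1 (edgeR adjusted p = 0.000423). The libraries of the classes did not overlap for any of these 4 genes. The Cldn14 call was lost without replicate 3 (adjusted p = 0.116) or replicate 4 (adjusted p = 0.105), without the filter (0.62, adjusted p = 0.109), at a mitochondrial limit of 10% (0.60, adjusted p = 0.155) and with the set-aside HCs put back (0.52, adjusted p = 0.0531). Cldn4, Cldn6 and Cldn10 had 0 UMIs among 767251 UMIs in the 152 cochlear HCs kept, which allows up to 3.91 CPM, while Cldn4 averaged 16.5 CPM in SCs, at least 4.22-fold higher. Before cells were set aside, a Cldn6 UMI was in 2.74% and a Cldn10 UMI in 1.37% of the inner HC cluster, and in 0% of the outer.

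Within the vestibule, HCs held more Cldn14 than SCs and less Cldn9, Cldn10, Ildr1 and Tjp1. All 5 genes tested were called, against 58.6% of all genes tested, 29.2% higher and 29.3% lower (libraries did not overlap for 53.6%). Cldn10 passed the filter on low counts through SCs alone, which largely set the direction of its call. The differences were 1.45 ± 0.28 for Cldn14 (edgeR adjusted p = 6.65e-05), -1.40 ± 0.18 for Cldn9 (edgeR adjusted p = 2.41e-07), -1.22 ± 0.22 for Ildr1 (edgeR adjusted p = 2.64e-05) and -1.41 ± 0.18 for Tjp1 (edgeR adjusted p = 1.86e-07). Cldn10 had 0 UMIs among 7353714 in the 1752 vestibular HCs kept, which allows up to 0.408 CPM and puts the SC mean of 65.8 CPM at least 161-fold higher (edgeR adjusted p = 3.19e-11). The bound does not cover cells set aside for markers of other cells. Cldn10 had 122 UMIs (30.1 CPM) in 274 cells with HC and SC markers, and 2 UMIs in 250 cells of set-aside HC subclusters. Without the filter Cldn4 (-2.54, adjusted p = 0.00702) and Cldn6 (-3.77, adjusted p = 7.27e-15) were also called.

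The difference between these 2 differences was tested as an interaction. It was called for Tjp1 (2.66 ± 0.29, edgeR adjusted p = 5.99e-08), Marveld2 (3.39 ± 0.71, edgeR adjusted p = 0.000856) and Cldn9 (0.97 ± 0.31, edgeR adjusted p = 0.0274), against 17.1% of all genes tested, 8.46% higher and 8.66% lower, and in each of the 3 the HC value relative to SCs was greater in the cochlea. For Tjp1 the sign itself turned between the organs. Marveld2 passed the filter on low counts through cochlear HCs alone, which largely set the direction of its call. Cldn14 (-0.85 ± 0.36, edgeR adjusted p = 0.105) and Ildr1 (-0.66 ± 0.39, edgeR adjusted p = 0.280) were not called, and with the library as a block Cldn14 was (-0.89, adjusted p = 0.0447). The Cldn9 interaction was lost in 6 of the 8 fits that left out a library (adjusted p from 0.0636 to 0.139), without the filter (0.74, adjusted p = 0.215), at a mitochondrial limit of 10% (0.40, adjusted p = 0.581) and with the set-aside HCs put back (0.83, adjusted p = 0.0556). Cldn10 was the other of the 6 genes in the fit, but with no UMI in HCs of either organ its fitted value had a standard error of 12890 and is not given. DESeq2 called 4 genes, the same 3 and Cldn10, for which the same holds.

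Among HC types Tjp1 was the gene called. In the vestibule, Tjp1 was at 59.1, 70.1, 88.5 and 90.9 CPM in type I HCs and at 115, 141, 146 and 159 CPM in type II HCs. The types did not overlap, and the difference, type I minus type II, was -0.81 ± 0.18 (SE, edgeR adjusted p = 0.00212), the only call among 4 genes tested against 17.4% of all genes tested, 7.88% higher and 9.49% lower (libraries did not overlap for 19.5%). Without replicate 3 the adjusted p was 0.0578. Cldn9, Cldn14 and Ildr1 were not called between the types (edgeR adjusted p = 0.668, 0.900 and 0.728). In the cochlea, 3 libraries had at least 5 cells of both types, and Tjp1 averaged 292 ± 63.3 CPM in outer HCs and 181 ± 47.0 CPM in inner HCs. The ranges overlapped, the difference was 0.94 ± 0.32 (SE, edgeR adjusted p = 0.0309), and it was lost without replicate 3 (adjusted p = 0.428) or replicate 5 (adjusted p = 0.172), with DESeq2 (0.89, adjusted p = 0.144) and without the filter (0.64, adjusted p = 0.438). Tjp1 was the only call among 3 genes tested, as Cldn9 and Cldn14 were not called. The background was 28.3% of all genes tested, 14.2% higher and 14.0% lower (libraries did not overlap for 41.5%), so that the count of calls was near that of all genes.

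Other epithelial cells were named from general epithelial markers, and their place in the organ was not measured. Cldn9 was the highest claudin of the set in them, at 474 ± 120 CPM in the cochlea and 528 ± 101 CPM in the vestibule. It was not called against SCs in either organ, and the differences called lay in other genes. The class held different clusters in the organs, led by Mia, Vmo1, Otoa or Lmo3 in the cochlea and by Vcan and Nox3, Abca13, Apoa4 or Vmo1 in the vestibule. In the vestibule Cldn4 was higher and Ildr1 lower than in SCs, 2 of the 6 genes tested, against 21.5% of all genes tested, 10.5% higher and 10.9% lower (libraries did not overlap for 22.2%). Cldn4 passed the filter on low counts through the other epithelial cells alone, which largely set the direction of its call. Cldn4 was at 191, 200, 111 and 155 CPM in the other epithelial cells and at 8.16, 4.48, 6.65 and 0 CPM in SCs, a difference of 4.91 ± 0.35 without overlap (SE, edgeR adjusted p = 2.46e-09). Cldn4 UMIs were found in 32.5% of these cells (exact interval 30.1 to 34.9%), in 1.80% of SCs and in 0.824% of macrophages. Ildr1 was at 33.6 ± 11.9 against 64.0 ± 9.23 CPM (-0.87 ± 0.26, edgeR adjusted p = 0.0203), a call lost without replicate 1 (adjusted p = 0.0750) or replicate 4 (adjusted p = 0.0560), or at a mitochondrial limit of 10% (adjusted p = 0.0592). Cldn11, which did not pass the filter, had 20.1 ± 4.81 against 2.60 ± 3.86 CPM and was called without the filter (2.80, adjusted p = 5.05e-05). Cldn10 was at 35.0 ± 16.0 against 65.8 ± 37.2 CPM with overlapping ranges and was not called (-0.86 ± 0.37, edgeR adjusted p = 0.108), but it was called with the library as a block (-0.90, adjusted p = 0.0169), without the filter (adjusted p = 0.0152), without replicate 1 (adjusted p = 0.0394) and without replicate 4 (adjusted p = 0.0436).

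In the cochlea, Cldn11 was higher and Cldn14 lower in this class than in SCs, 2 of the 7 genes tested, against 12.7% of all genes tested, 7.04% higher and 5.64% lower (libraries did not overlap for 16.4%). Cldn11 passed the filter on low counts through this class alone, which largely set the direction of its call. Cldn11 was at 23.1, 33.5, 37.3 and 28.5 CPM against 1.73, 4.28, 1.01 and 0 CPM (3.49 ± 0.43, edgeR adjusted p = 3.48e-05). Cldn14 had means of 44.1 ± 5.50 and 75.5 ± 8.09 CPM (-0.88 ± 0.19, edgeR adjusted p = 0.00491), a call lost without replicate 3 (adjusted p = 0.126) or replicate 5 (adjusted p = 0.0503). With the library as a block, Cldn4 (1.13, adjusted p = 0.00912) and Ildr1 (-0.71, adjusted p = 0.00267) were also called, and without it they were not (edgeR adjusted p = 0.0562 and 0.0743). Cldn4 was also called without replicate 4 (adjusted p = 0.0135) and without the filter (adjusted p = 0.0491). Ildr1 was called in 6 of 11 alternatives, which besides the block were no filter (adjusted p = 0.0356), resolution 0.6 (-1.21, adjusted p = 0.00111), a mitochondrial limit of 10% (-1.15, adjusted p = 0.00535), replicate 2 in place of replicate 1 (-1.23, adjusted p = 0.00031) and leaving out replicate 1 (adjusted p = 0.0189).

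Clusters differed widely within the class. Cldn4 was highest in the vestibular cluster led by Vcan, Nox3 and Kdr, at 360 ± 121 CPM (SD, n = 4 libraries), where 45.6% of 799 cells had a UMI. The marginal or dark cells of the vestibule, which secrete potassium, had 160 ± 131 CPM of Cldn4, with replicate 1 at 354 CPM and the others from 71.2 to 112 CPM. Cldn9 was highest in the cochlear cluster led by Otoa, Slc26a4 and Ceacam16, at 1287 ± 198 CPM, where the lowest library stood at 1107 CPM, above the highest library of any other epithelial cluster (1099 CPM). Ildr1 was highest in the cochlear SC cluster led by Rbp7 and Tectb, at 264 ± 153 CPM. As these clusters were formed from the same cells, the values are a description.

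**Figure D3:**
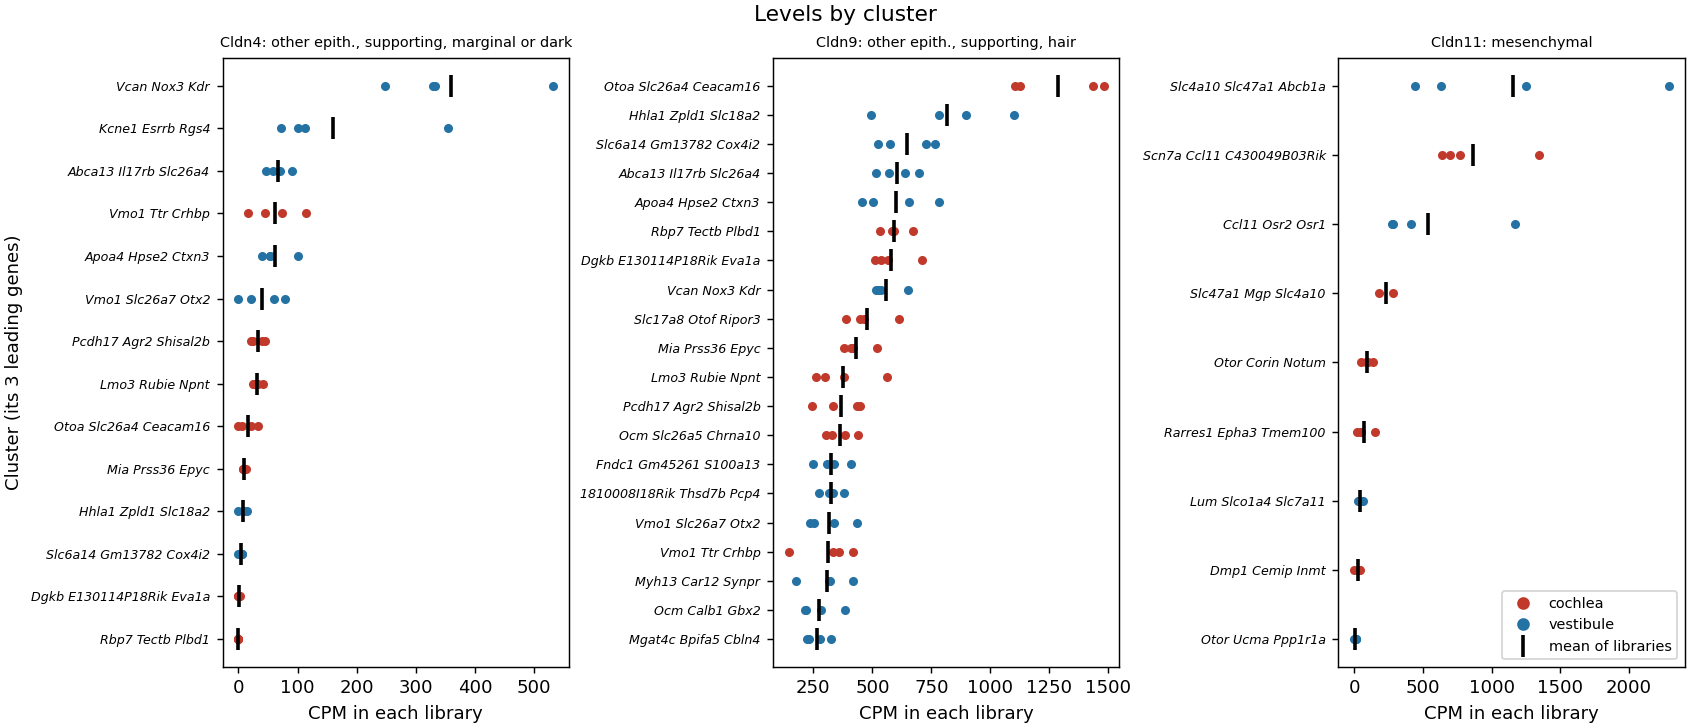
CPM of Cldn4, Cldn9 and Cldn11 in clusters of the classes named above each panel, with a point for each library with at least 5 cells, coloured by organ, a black bar at the mean, and each cluster named by its 3 leading genes. Cldn4 peaked in the Nox3 cluster of the vestibule (360 CPM), Cldn9 in the Otoa cluster of the cochlea (1287 CPM), and Cldn11 in mesenchymal clusters with wide spreads between libraries.

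A cluster led by Vmo1 and Otx2 was found in both organs and allowed a closer match. None of the 3 genes tested was called, against 3.30% of all genes tested, 1.51% higher and 1.79% lower (libraries did not overlap for 9.43%). Cldn9 differed by 0.04 ± 0.30, Tjp1 by -0.74 ± 0.31 and Cldn11 by 1.58 ± 0.48 (edgeR adjusted p = 0.969, 0.250 and 0.0977), and 2 of the 3, Cldn11 and Tjp1, were under 0.05 at an unadjusted p (0.00536 and 0.0287). DESeq2 also called 0. A gene of the set was called in 6 of the 8 fits that left out a library. Cldn11 was called without vestibular replicate 3 (2.85, adjusted p = 0.0411) and without the filter on low counts (1.81, adjusted p = 0.00644). Cldn10, which passed the filter in none of the fits with all libraries, was called without cochlear replicate 1, 3, 4 or 5 or vestibular replicate 5 (adjusted p from 0.00115 to 0.0408) and without the filter (adjusted p = 7.50e-23). Cldn11 stood at 64.9, 77.6, 99.5 and 85.9 CPM in the cochlea and at 0, 48.1, 0 and 20.5 CPM in the vestibule, without overlap. Cldn10 stood at 8.12, 0, 0 and 0 CPM in the cochlea and at 206, 74.3, 650 and 13.7 CPM in the vestibule, also without overlap. The vestibular values came from 65 UMIs in 10 of 112 cells, 1, 5, 2 and 2 cells in the libraries, and the cochlear value from 1 UMI. Cldn4 did not pass the filter with all libraries, and stood at 65.7 CPM in the cochlear and 51.8 CPM in the vestibular cluster over pooled cells. Without the filter Cldn4 was not called (0.52, edgeR adjusted p = 0.685).

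Outside the epithelium, Tjp1 and Cldn11 were the abundant members. In mesenchymal cells Tjp1 averaged 674 ± 172 CPM in the cochlea and 605 ± 48.2 CPM in the vestibule, and Cldn11 213 ± 81.6 and 201 ± 174 CPM. Neither passed the test between organs (edgeR adjusted p = 0.939 and 0.888), against 22.2% of all genes tested, 11.1% higher and 11.1% lower (libraries did not overlap for 26.2%), and at an unadjusted p neither was under 0.05 (0.854 and 0.761). DESeq2 called 0 as well. Vestibular Cldn11 was at 461 CPM in replicate 1 and between 105 and 124 CPM in the other libraries. The sum hides large differences between clusters: Cldn11 stood at 1153 ± 833 CPM in the vestibular cluster and at 229 ± 71.2 CPM in the cochlear cluster (n = 2) led by Slc47a1 and Slc4a10, and at 863 ± 327 CPM in the cochlear cluster led by Scn7a and Ccl11. Unnamed clusters with Otos, a mesenchymal marker, among their leading genes were left out of the class. Over pooled cells, those of the vestibule (918 and 527 cells) had Cldn11 at 7.12 and 0 CPM and Tjp1 at 298 and 217 CPM. The cochlear cluster of this kind (300 cells) had Cldn11 at 133 CPM and Tjp1 at 105 CPM. The class means and the test do not cover these cells.

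In glial cells Cldn11 was at 386 and 351 CPM in the 2 cochlear libraries with at least 5 such cells, and at 0, 25.7 and 19.8 CPM in 3 vestibular libraries. The difference was 4.47 ± 0.65 (SE, edgeR adjusted p = 0.000255), the only gene of the set tested there, and at resolution 0.6 it was not among the genes tested, against 34.6% of all genes tested, 18.5% higher and 16.1% lower (libraries did not overlap for 55.4%). Cldn11 passed the filter on low counts through the cochlear libraries alone, which largely set the direction of its call. The cochlear glial cluster had Klk6, Ermn and Mog among its leading genes, known from central myelin, and the vestibular cluster had Prx, known from peripheral myelin, so that organ and kind of glia cannot be told apart. Of the other tight junction genes, Cldn19, a claudin of peripheral myelin, was lower in the cochlea (11.5 against 318 CPM, edgeR adjusted p = 0.00131).

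Cldn5, the main claudin of the vessel wall, was close to absent. No cluster could be named endothelial, and no comparison of endothelial cells between organs was made. Over all kept cells 150 Cldn5 UMIs were found in 29 cells. All 103 cochlear UMIs came from replicate 3, and cochlear replicates 1, 4 and 5 had 0. Of all 150 UMIs 90.7% lay in the 706 cells with a UMI of at least 2 of 7 endothelial markers (Pecam1, Cdh5, Kdr, Flt1, Egfl7, Emcn and Tie1). All 10 cells with 3 or more Cldn5 UMIs were among them, and the highest held 28. The other 19 of the 29 cells had 1 UMI each. Of the 706 cells only 15 (2.12%) had a Cldn5 UMI. Emcn was also a leading gene of cochlear mesenchymal clusters and Kdr of the vestibular Nox3 cluster, so that the 706 cells are not a set of endothelial cells. HCs had 0 Cldn5 UMIs in both organs, which allows up to 3.91 CPM in the cochlea and 0.408 CPM in the vestibule. Cldn5 values of the mesenchymal class (4.81 ± 9.62 and 6.70 ± 12.8 CPM) were highest in the clusters led by Slc47a1, at 71.8 ± 101 CPM in the cochlea (n = 2, from replicate 3 alone) and 115 ± 231 CPM in the vestibule (n = 4).

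**Figure D4:**
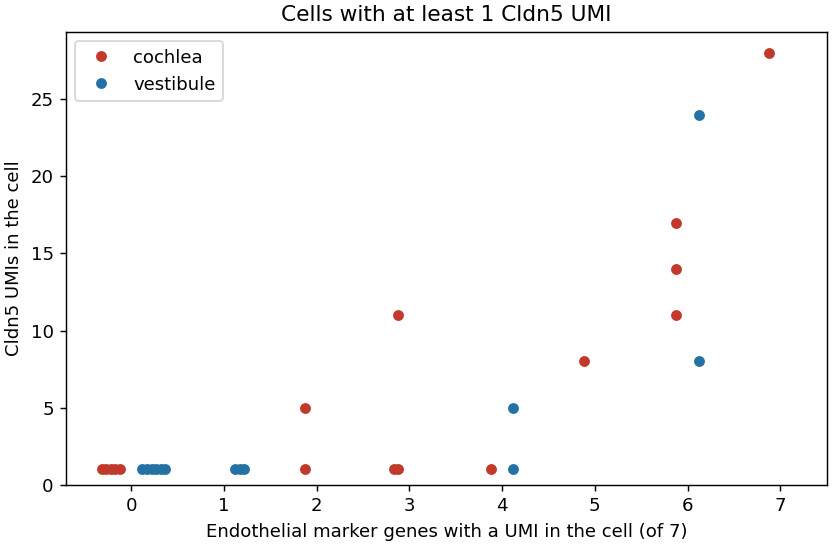
Cldn5 UMIs in each cell that had at least 1 (vertical axis) against the number of 7 endothelial marker genes with a UMI in the same cell (horizontal axis), with a point for each of 29 cells, coloured by organ and shifted sideways for visibility. All 10 cells with 3 or more Cldn5 UMIs had at least 2 of the markers, and cells with 0 markers had 1 UMI each.

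Cldn6, a claudin of immature epithelia, was low throughout, with its highest class means in other epithelial cells (30.5 ± 13.9 CPM in the vestibule and 16.3 ± 16.6 CPM in the cochlea). It was found in 7.75% of vestibular SCs (exact interval 5.66 to 10.3%) and in 0.742% of vestibular HCs, against 0.275% of vestibular macrophages. At 1000 UMIs a cell the shares were 2.34% in SCs and 0.171% in HCs. Its neighbour Cldn9 was abundant in HCs, where Cldn6 was near 0.

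The order of classes was clear for some genes and not for others. Cldn14 fell from HCs to SCs without overlap in both organs, and from SCs to other epithelial cells without overlap in the cochlea but not in the vestibule. For Cldn9 the 3 leading cochlear classes, SCs, other epithelial cells and HCs, overlapped at 481, 474 and 443 CPM, while in the vestibule HCs at 295 CPM lay below both. Cldn9 UMIs were found in 62.5% of cochlear and 62.7% of vestibular HCs, in 33.6% and 24.8% after thinning to 1000 UMIs, and in 4.28% and 1.65% of macrophages.

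The 35 other tight junction genes of the list, of which 33 were in the tables, moved in both directions. Between organs in HCs, 6 of 14 tested were higher in the cochlea and 2 lower, beside 12.8% and 18.1% of all genes, with a median of 0.29 on the log2 scale beside -0.06 over all genes. Magi3, a scaffold, was at 1074 against 63.3 CPM (4.05 ± 0.31, edgeR adjusted p = 8.14e-10) and Tjp3 at 37.7 against 6.21 CPM, while Tjap1 (129 against 311 CPM) and Cldn12 (5.83 against 28.1 CPM) were lower in the cochlea. In SCs 3 of 21 were higher in the cochlea and 6 lower, beside 14.1% and 15.5% of all genes. Cldn23 was among the higher ones (58.1 against 2.63 CPM, edgeR adjusted p = 1.11e-07) and Ocln (occludin) among the lower (17.4 against 41.9 CPM, edgeR adjusted p = 0.00651). HCs were lower than SCs in 9 of 18 such genes in the cochlea and 12 of 21 in the vestibule, and higher in 4 and 3. Of all genes, 23.5% and 29.3% were lower and 20.4% and 29.2% higher. Cldn3 was among the lower ones in both, with 5.87 against 153 CPM in the cochlea and 2.70 against 297 CPM in the vestibule. In other epithelial cells of the vestibule, 6 of 18 were higher than in SCs and 3 lower, beside 10.5% and 10.9% of all genes, with Cldn8 at 364 against 49.3 CPM (2.87 ± 0.22, edgeR adjusted p = 5.81e-09).

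Genes with the most similar pattern were sought by Pearson correlation of log2(CPM + 1) over 24 class means of both organs, among genes with at least 20 CPM in a class. The points share libraries and depth, and the values are a description without a test. For Cldn9 these were Cldn7 (0.945), Rab25 (0.943) and Crb3 (0.925), and for Ildr1 Inava (0.943), Cldn7 (0.940) and Crb3 (0.913). For Cldn14 they were Acer2 (0.900), Tmprss3 (0.886) and C2cd4b (0.872), for Cldn4 Urah (0.931), Myo5c (0.926) and Slco1a5 (0.908), and for Tjp1 Per3, Twsg1 and Ptn (0.868, 0.868 and 0.863). For Cldn11 they were Lcat (0.844), Sspn (0.825) and Fzd10 (0.794), for Cldn6 Exph5 (0.901), Rasef (0.857) and Cldn8 (0.828), for Cldn10 Ror1, Barx2 and Cybrd1 (0.754, 0.749 and 0.745), for Marveld2 Muc15, Rpusd3 and Pard6b (0.788, 0.787 and 0.783), and for Cldn5 Col4a2, Osmr and Col4a1 (0.889, 0.873 and 0.855), though Cldn5 itself reached no more than 7.98 CPM.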

How the data were processed

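Per the labels and the study's methods, the authors aligned reads to mm10 and counted UMIs with Cell Ranger. The version in the file headers is 5.0.1 in replicates 1 and 2 of each organ, while replicates 3, 4 and 5 carry 6.1.2. The deposited values are raw UMI counts per gene and barcode, without normalization. Cells were kept with at least 200 genes, 1000 UMIs and under 25% mitochondrial UMIs. Clusters were made per organ in Seurat 5.3.0 (2000 variable genes, 30 components, resolution 1) without the tight junction genes. A class needed 3 enriched markers (25% of cells with a UMI, log2 fold of 1). Rules that set cells aside were chosen after the clusters were seen: 70 cochlear and 250 vestibular cells of HC subclusters with markers of other cells, 274 vestibular cells with HC and SC markers, and 241 vestibular epithelial cells almost wholly of replicate 3. The 70 cochlear cells held 1050830 UMIs, more than the 767251 UMIs of the 152 cochlear HCs kept. Setting them aside took the inner HC cluster from 146 cells to 79 and the outer from 76 to 73. Another 794 and 1445 cells stayed unnamed. No doublet caller was run.

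UMI counts were added up for each class of a library that held 5 cells or more, and edgeR 4.0.16 compared the sums (TMM factors, filterByExpr, quasi-likelihood, R 4.3.3) at an adjusted p of 0.05, without a block. DESeq2 1.42.0, other normalization, filters, resolution, cells and left-out libraries were alternatives. The fit was tested on simulated data in which 200 genes were given a log2 change of 2: 79.9% of 184 tested changed genes were called for HCs between organs and 91.1% of 168 for SCs. In the vestibule the share was 92.5% of 174 for HCs against SCs and 92.1% of 178 for type I against type II HCs. For vestibular other epithelial cells against SCs it was lowest, 60.2% of 166, so that genes not called there are weaker evidence. The simulation gave every gene the median dispersion and drew libraries independently. Its shares hold for a log2 change of 2 and do not measure the recovery of smaller changes in any comparison, so a gene not called is not shown to be equal. Classes of 1 library share their mice, and their deviations correlated at 0.118 to 0.407 in the tests of HCs, SCs and other epithelial cells. Intervals and limits of 3 counts cover counting error only. The genes and lists were chosen with earlier results of these data known. All 10 genes are reported, and of the other tight junction genes up to 3 called per direction with the largest change could be named; some are not reported here. The outer and inner HC, Vmo1 and interaction tests were added after the data were seen. In bulk sums of a class, fewer cells of a type and less RNA per cell cannot be told apart.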

Additional observations from a re-analysis of the deposited data

Results flagged for a closer look

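Among 42 groups of 4 libraries with a mean of at least 10 CPM, 4 held a library far from the other 3, where chance alone gives about 1 in 20 groups. Marveld2 in cochlear HCs was at 169 CPM in replicate 1, where 24 of the 26 HCs were outer HCs, and at 39.1 to 55.4 CPM in the others. Cldn11 was at 461 CPM in vestibular mesenchymal cells of replicate 1, against 105 to 124 CPM, and at 27.2 CPM in other epithelial cells of the same library, against 16.9 to 18.3 CPM. Tjp1 was at 146 CPM in other epithelial cells of cochlear replicate 4, against 76.2 to 86.6 CPM.

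The difference between HCs and SCs differed between the organs by the interaction test for Tjp1 (2.66 on the log2 scale), Marveld2 (3.39) and Cldn9 (0.97).

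The vestibular epithelial clusters of replicate 3 that entered no comparison held Cldn4 at 108 CPM, from 132 UMIs in 241 cells.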

How the results depend on the processing

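No called difference changed sign under the alternatives run. The count of genes called was 0 in mesenchymal cells under each of 15 alternatives, but it changed in 7 of 16 in HCs between organs, in 11 of 16 in the interaction, in 9 of 11 in cochlear other epithelial cells against SCs, in 5 of 10 in outer against inner HCs and in 7 of 15 in the Vmo1 Otx2 cells. With the mitochondrial limit at 10%, the genes called fell to 2 in HCs between organs (Marveld2 did not pass the filter there and Cldn9 was not called), 2 in cochlear HCs against SCs, 1 in vestibular other epithelial cells against SCs, 0 in outer against inner HCs and 1 in the interaction (Tjp1). Without the filter on low counts there were 2 in the Vmo1 Otx2 cells, 5 and 4 in cochlear and vestibular other epithelial cells against SCs, 0 in outer against inner HCs, 6 against 4 in SCs between organs, 7 against 5 in vestibular HCs against SCs, 3 against 4 in HCs between organs and 2 against 3 in the interaction. DESeq2 called 0 in outer against inner HCs, resolution 0.6 called 0 in glial cells, and the replicate block, which pairs classes of the same library, called 4 in cochlear other epithelial cells. Leaving out a library gave 0 to 1 in the Vmo1 Otx2 cells, 1 to 3 in cochlear other epithelial cells, and 0 to 1 both in type I against type II HCs and in outer against inner HCs.

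Across organs the numbers are not known to mark shared mice, and the deviations of same-numbered libraries correlated at 0.0415 to 0.123 for HCs, 0.0736 to 0.332 for SCs and 0.0986 to 0.183 for mesenchymal cells, so that in each of these at least 1 number was not over 0.1. The block raised the genes called over the whole table from 2310 to 3000 in SCs and changed no member's call between organs. Within organs it raised the calls of cochlear other epithelial cells against SCs from 1011 to 1979. Over the whole table, the limit of 10% gave 1268 calls against 2362 in HCs between organs, 1104 against 2310 in SCs, 1849 against 2870 in cochlear HCs against SCs, 826 against 1429 in vestibular other epithelial cells, 823 against 1670 in the interaction and 99 against 407 in outer against inner HCs, and 444 against 254 in glia. No filter gave 3537 in SCs, 4484 in cochlear HCs against SCs, 1540 and 2466 in cochlear and vestibular other epithelial cells, 491 in glia, 657 in outer against inner HCs and 396 against 92 in the Vmo1 Otx2 cells. Resolution 0.6 gave 127 in glia, and replicate 2 in place of replicate 1 gave 142 in the Vmo1 Otx2 cells. The comparison of endothelial cells was not run, because no cluster was named so. Some sums rest on few cells, with 14 HCs and 6 inner HCs in cochlear replicate 4 and 7 glial cells in cochlear replicate 1.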
